A study of Homo sapiens with 12 samples.

Results

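Interferon signals are received at the cell surface by 2 heterodimeric receptors and passed on by kinases of the Janus (JAK) family. The transcripts described here were the 4 receptor chains IFNGR1, IFNGR2, IFNAR1 and IFNAR2 and the 4 kinases JAK1, JAK2, JAK3 and TYK2, which were chosen by name and are 8 of the 43769 genes in the count table. All 8 had counts in every library and passed the filter on low counts. In SK-N-DZ neuroblastoma cells, IFNγ raised JAK2 from 4.19 ± 0.698 to 31.0 ± 8.66 CPM (counts scaled to library size, mean ± SD, n = 3), and in cells that had also received doxycycline JAK2 went from 4.21 ± 0.911 to 19.8 ± 4.35. No other member passed the test for IFNγ in edgeR's model without a replicate block, while DESeq2 and models with the block also called IFNAR1, IFNAR2 or IFNGR2 in one or both contrasts. TYK2 was higher with doxycycline among IFNγ-treated cells, a call that was lost in several alternative fits.

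The receptor for IFNγ, the type II interferon, is built from the ligand-binding chain IFNGR1, which carries JAK1, and the chain IFNGR2, which carries JAK2. Both kinases are needed for signalling, which ends at gamma-activated sites (GAS) near genes such as IRF1. Type I interferons use IFNAR1, which carries TYK2, and IFNAR2, which carries JAK1, and they act mainly through a complex that contains STAT2 and IRF9 on interferon-stimulated response elements (ISRE). JAK3 serves the cytokine receptors of lymphoid cells that contain the common gamma chain.

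The libraries came from SK-N-DZ, a human neuroblastoma line with MYCN amplification and wild-type ARID1A, as 1 clone carrying a doxycycline-inducible hairpin against ARID1A. The 4 groups of 3 libraries were untreated cells (C), doxycycline for 4 days (D), IFNγ for 24 h (I) and both agents (DI), and the labels give the genotype WT to C and I and shARID1A to D and DI. Every group carried the hairpin construct, and doxycycline and the induced hairpin were never given apart, so their parts cannot be told apart. The labels do not say whether replicates were separate cultures, so p-values measure the spread between these libraries, which may be technical.

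Library totals ran from 16469832 to 21790869 counts, at which 3 counts equal 0.135 to 0.187 CPM. The targeted gene ARID1A measured 165 to 197 CPM in untreated cells and 158 to 197 with doxycycline, and 192 to 203 CPM with IFNγ and 133 to 151 with both agents, with a log2 fold change of -0.092 in D vs C (adjusted p = 0.788) and -0.44 in DI vs I (adjusted p = 0.115, edgeR). With the replicate number fitted as a block, ARID1A was called lower in DI vs I (adjusted p = 0.0111), as it was by DESeq2 (0.00453), and it was lower in 3 of 3 replicate numbers. Neither called it in D vs C (adjusted p = 0.509 and 0.766). The 8 markers of adrenergic neuroblastoma summed to between 3600 and 4563 CPM in every library. The 7 leukocyte markers, of which 2 had no count in any library, summed to at most 1.56 CPM, so JAK3 and the other kinases were measured in libraries with almost no leukocyte transcripts. Markers of endothelium summed to 0.116 to 2.95 CPM, of fibroblasts to 3.37 to 26.5 CPM and of Schwann cells to 1.60 to 10.9 CPM. Mitochondrial mRNA took 0.856% to 1.30% of counts in D and 0.768% to 2.58% in DI, whereas its share was 3.35% to 4.99% in C and 2.90% to 4.42% in I, so it moved with the doxycycline label. Within each group it also moved with the replicate number, highest in replicate 1 and lowest in replicate 3.

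In GENCODE 29 (GRCh38), 3 of the 4 receptor chains lie side by side on the plus strand of chromosome 21, within 249448 bp. They are IFNAR2 (ENSG00000159110, chr21:33229901-33265675), IFNAR1 (ENSG00000142166, chr21:33324477-33359862) and IFNGR2 (ENSG00000159128, chr21:33402896-33479348), with 58801 and 43033 bp between neighbours. IFNGR1 (ENSG00000027697) lies alone on the minus strand at chr6:137197484-137219449. Of the kinases, TYK2 (ENSG00000105397, chr19:10350529-10380676) and JAK3 (ENSG00000105639, chr19:17824780-17848071) share chromosome 19, both on the minus strand. JAK1 (ENSG00000162434) lies at chr1:64833229-64966504 on the minus strand and JAK2 (ENSG00000096968) at chr9:4984390-5128183 on the plus strand.

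JAK2 and TYK2 were the members called in edgeR's model without a replicate block. The 250 bases before the most upstream RefSeq start of each are therefore shown in lower case (GRCh38.p14, 5′ to 3′ on the gene's own strand). JAK2 has 4 annotated starts, and the stretch shown is chr9:4984140-4984389, before its first. TYK2 has 1, and the stretch shown is chr19:10380573-10380822 on the minus strand. The GAS of IRF1 is printed beside them with 10 bases on each side (chr5:132490879-132490907, minus strand), capitals marking the letters that match TTCNNNGAA, since IRF1 is a known target of IFNγ and was called higher with it.
JAK2: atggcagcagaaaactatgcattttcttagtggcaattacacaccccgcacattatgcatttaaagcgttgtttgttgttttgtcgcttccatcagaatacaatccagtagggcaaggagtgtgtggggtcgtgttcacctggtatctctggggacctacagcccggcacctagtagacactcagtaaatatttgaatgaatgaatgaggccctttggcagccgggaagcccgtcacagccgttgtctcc
TYK2: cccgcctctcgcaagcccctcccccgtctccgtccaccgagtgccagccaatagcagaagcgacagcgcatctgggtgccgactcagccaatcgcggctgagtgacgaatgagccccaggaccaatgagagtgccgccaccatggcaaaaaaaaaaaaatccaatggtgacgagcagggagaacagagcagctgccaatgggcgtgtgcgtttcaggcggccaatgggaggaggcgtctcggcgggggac
IRF1: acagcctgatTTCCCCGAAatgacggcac
The JAK2 stretch had 48.4% G and C with 8 CpG dinucleotides, and the TYK2 stretch had 62.0% with 19. The JAK2 values hold for its first start only. In windows from 250 bases before to 50 after a start, its later starts had 73.3%, 69.0% and 58.3% G and C. Their CpG counts were 39, 28 and 14. The same window at TYK2 had 63.0% with 24. Windows from 250 bases before to 50 after a start were searched on both strands for GAS (TTCNNNGAA) and for an ISRE core (GAAANNGAA), which may overlap each other. GAS was present in 2689 of 35116 RefSeq windows (7.66%) and the ISRE core in 2847 (8.11%). RefSeq windows were given for 7 of the 8 members, and none of these 14 windows held either motif, which says only that these letters are not in these windows. In IRF1, the match lies 124 to 116 bases before the start.

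To compare genes with each other, counts were divided by exon length and expressed as TPM, scaled to the same sum in each library. In untreated cells the receptor for IFNγ had the most abundant chains, at 41.8 TPM for IFNGR2 and 35.4 for IFNGR1, whose libraries overlapped. The kinases JAK1 (26.7 TPM) and TYK2 (20.6) came next, followed by IFNAR1 (17.4), and none of these neighbours overlapped. JAK2 stood far lower at 2.34 TPM, above only 19.4% of the tested genes. Below it came IFNAR2 (1.07 TPM) and JAK3 (0.653), which overlapped each other. With the length of the longest transcript in place of all exons the order was unchanged, but TYK2 came close to JAK1 (24.2 and 25.2 TPM). So in the resting cells the chains measured unequal on the type I side, with IFNAR1 at 13.2 to 20.0 times the TPM of IFNAR2. On the type II side they were near-equal, with IFNGR2 at 1.14 to 1.21 times IFNGR1. The type I ratio rests on 19 to 35 counts of IFNAR2 per C library. It may also depend on how reads were counted over shared exon bases, 39.1% with an antisense gene and 44.2% with a readthrough gene. This was not tested.

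**Figure D1:**
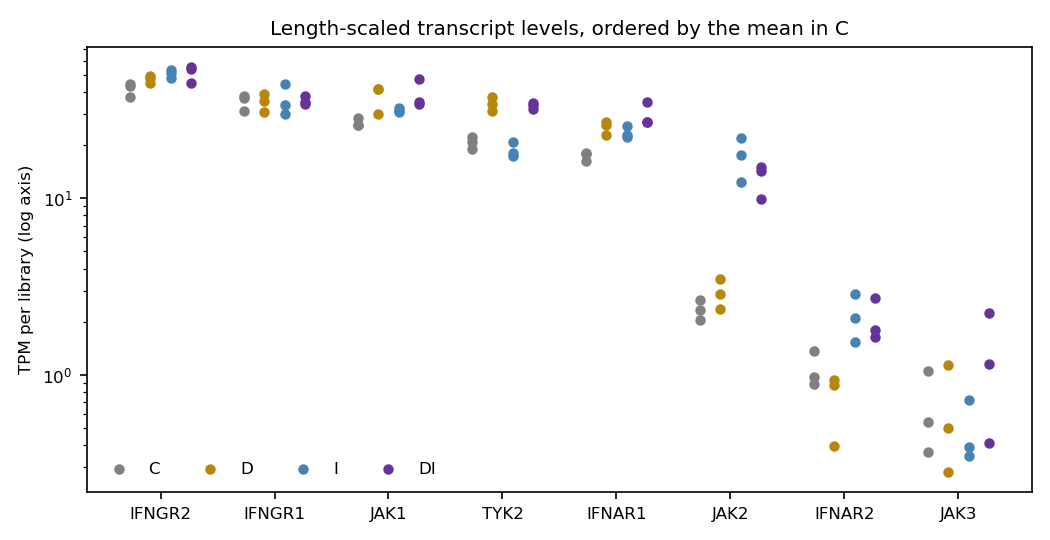
TPM of each member in every library on a log axis, ordered by the mean in C and coloured by group, with 3 points per group. JAK2 sits between 2.06 and 3.50 TPM in the C and D libraries and between 9.92 and 22.0 TPM in the libraries with IFNγ.

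With IFNγ alone JAK2 kept its place as the sixth of the 8, but its mean was 17.3 TPM, above 51.6% of tested genes, and its libraries overlapped those of TYK2 (18.7 TPM). The one change of order from C to I was IFNAR1 (23.6 TPM), which stood above TYK2 without overlap. In DI, JAK2 stood at 13.0 TPM, above 42.2% of tested genes. By the mean, IFNGR2 was the most abundant of the 8 in each group and JAK3 the least, although IFNGR2 overlapped IFNGR1 in C and JAK1 in DI, and JAK3 overlapped IFNAR2 in C, D and DI.

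The first question was how IFNγ acts on its own receptor and kinases, which I vs C asks in cells without doxycycline and DI vs D in cells with it. JAK2, which is carried by the IFNGR2 chain, had 80, 71 and 66 counts in the C libraries (4.92, 3.53 and 4.11 CPM). In the I libraries it had 650, 715 and 416 counts (32.2, 39.0 and 21.8 CPM). Every I library lay above every C library, the lowest by more than 4 times the highest C value.

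In D the JAK2 values were 3.43, 3.98 and 5.21 CPM, and in DI they were 22.8, 21.7 and 14.8 CPM, again without overlap. The fold was 7.40 in I vs C (95% interval 4.89 to 11.2, log2 fold change 2.89, SE 0.27, adjusted p = 8.22e-05) and 4.70 in DI vs D (3.13 to 7.06, log2 fold change 2.23, SE 0.27, adjusted p = 6.40e-04), by edgeR's quasi-likelihood test with Benjamini-Hochberg adjustment over 15828 genes. JAK2 was the only member called in these 2 contrasts, 1 of 8 in each, where 2.10% of all tested genes were called higher in I vs C and 1.67% in DI vs D, and 0.114% and 0.0505% were called lower. It was called under every alternative and with any 1 library left out.

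IFNAR1, the TYK2-bound chain of the type I receptor, measured 30.7, 31.4 and 32.4 CPM in C and 41.4, 46.4 and 41.4 in I. In D it measured 40.3, 36.7 and 34.6 CPM, and in DI 44.2, 51.6 and 41.3. The 6 libraries with IFNγ therefore all lay above the 6 without, by a narrow margin between the lowest DI and the highest D library. The log2 fold change was 0.45 in I vs C (SE 0.11, adjusted p = 0.0812) and 0.30 in DI vs D (SE 0.11, adjusted p = 0.514, edgeR), so neither passed the threshold. With the replicate number as a block the adjusted p was 0.0170 in I vs C, and with a block within each doxycycline arm it was 0.00129 in I vs C and 0.0282 in DI vs D. DESeq2 also called it in I vs C (adjusted p = 0.00596).

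IFNAR2, its JAK1-bound partner, was measured on few reads, between 8 and 79 counts per library. Without IFNγ it measured 1.35, 1.74 and 1.18 CPM in the C libraries and 0.953, 0.414 and 1.04 in the D libraries. With IFNγ the I libraries had 3.91, 2.78 and 2.04 CPM and the DI libraries 3.29, 1.95 and 1.85. All libraries with IFNγ again lay above all libraries without. The log2 fold change was 1.03 in I vs C (95% interval 0.11 to 1.94, adjusted p = 0.487) and 1.55 in DI vs D (0.61 to 2.48, adjusted p = 0.159, edgeR). The block brought DI vs D to an adjusted p of 0.0472, and the block within each arm brought I vs C to 0.0458 and DI vs D to 0.00600, while DESeq2 gave 0.0327 in DI vs D. Reads of IFNAR2 are uncertain, because 39.1% of its exon bases are shared with the antisense gene IL10RB-DT and 44.2% with a readthrough gene on the same strand, and the sources used here do not say whether counting used strand.

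IFNGR2, the chain that carries JAK2, measured 33.3, 36.6 and 37.0 CPM in C and 41.8, 43.5 and 45.0 in I, without overlap. It measured 31.5, 31.9 and 35.2 CPM in D, overlapping the 34.5, 37.5 and 39.5 CPM of DI. The log2 fold change was 0.29 in I vs C (SE 0.099, adjusted p = 0.319) and 0.18 in DI vs D (SE 0.099, adjusted p = 1.000, edgeR), and only in I vs C did the blocks bring it past the threshold (adjusted p = 0.0429, and 0.0139 within arms). TMEM50B on the opposite strand shares 12.8% of its exon bases. IFNGR1, the ligand-binding chain, ranged from 30.8 to 35.8 CPM in C and from 28.3 to 41.6 in I, and the interval of its log2 fold change ran from -0.29 to 0.36 in I vs C and from -0.23 to 0.42 in DI vs D. With 3 libraries a group, both intervals run from a fall to a rise, so no direction of change in IFNGR1 was shown. Any change within these bounds remains compatible with the data.

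JAK1, shared by both receptors, measured 47.0 to 49.8 CPM in C and 56.8 to 58.7 in I, which did not overlap. The D libraries (45.5 to 61.7 CPM) overlapped the DI libraries (53.6 to 69.5 CPM). Its log2 fold change was 0.25 in I vs C (SE 0.13, adjusted p = 0.775) and 0.11 in DI vs D (SE 0.13, adjusted p = 1.000, edgeR). TYK2 gave -0.13 in I vs C (95% interval -0.37 to 0.10) and 0.037 in DI vs D (-0.20 to 0.27). JAK3 had 8 to 70 counts per library, and its interval of -1.94 to 1.08 in I vs C leaves its direction undetermined.

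Counting members rather than testing them, 3 of the 8 (JAK2, IFNAR1 and IFNAR2) had all 6 IFNγ libraries above all 6 others in CPM, a pattern found in 2.98% of the tested genes. The number called with IFNγ depended on how the replicate number was treated. In I vs C the block called 3 of 8 higher (JAK2, IFNAR1 and IFNGR2; 4.88% of all tested genes), the block within arms 4 of 8 (these and IFNAR2; 9.18%) and DESeq2 2 of 8 (JAK2 and IFNAR1; 3.14%). In DI vs D the block called 2 of 8 higher (JAK2 and IFNAR2; 3.77%), the block within arms 3 of 8 (these and IFNAR1; 6.98%) and DESeq2 2 of 8 (JAK2 and IFNAR2; 2.57%). None called a member lower.

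**Figure D2:**
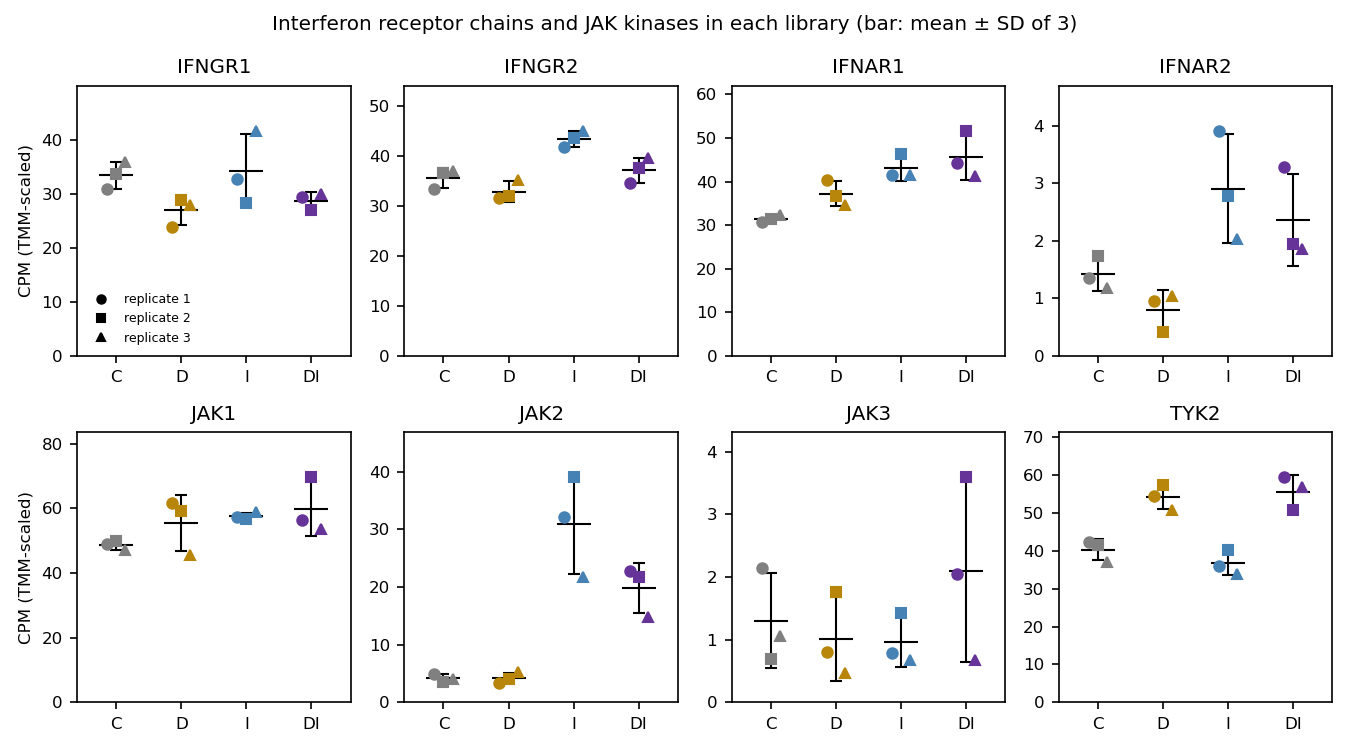
CPM of each member in every library, by group, with marker shapes for replicate numbers and bars for the mean ± SD of 3 libraries. JAK2 lies between 14.8 and 39.0 CPM in the libraries with IFNγ and at most at 5.21 without, and TYK2 lies between 50.7 and 59.3 CPM in the libraries with doxycycline and at most at 42.2 without.

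The second question was whether the members differed with doxycycline, which switches on the hairpin. In resting cells (D vs C) none of the 8 was called, where 0.493% of tested genes were called higher and 0.733% lower. JAK2 was level between D and C, with a log2 fold change of 0.008 (95% interval -0.57 to 0.59).

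TYK2 measured 42.2, 41.5 and 37.1 CPM in C and 54.4, 57.2 and 50.8 in D. Among IFNγ-treated cells it measured 36.0, 40.3 and 33.9 CPM in I and 59.3, 50.7 and 56.7 in DI. All 6 doxycycline libraries lay above all 6 others, as they did for 2.86% of the tested genes, and TYK2 was the only member with this pattern. In DI vs I the fold was 1.51 (95% interval 1.28 to 1.78, log2 fold change 0.60, SE 0.11, adjusted p = 0.0341, edgeR), higher in 3 of 3 replicate numbers, and TYK2 was 1 of 8 members called where 0.101% of tested genes were called higher and 0.569% lower. This call was lost on the 6 libraries of these groups alone (adjusted p = 0.226) and without the filter (0.0712). It was also lost without I replicate 1, 2 or 3 (0.137, 0.0649 and 0.153) and without DI replicate 1 or 3 (0.121 and 0.137), with log2 fold changes of 0.54 to 0.67. In D vs C the fold was 1.34 (1.14 to 1.58, log2 fold change 0.43, SE 0.11, adjusted p = 0.0915, edgeR). There the block called TYK2 (adjusted p = 0.0130, 6.23% of tested genes called higher), as did DESeq2 (0.00376, 2.50%) and scaling by library size alone (0.0416, 1.26%). In DI vs I it was called with the block (3.85% called higher) and by DESeq2 (1.51%). The mitochondrial mRNA share moved with the same libraries, and its part in the TYK2 values was not tested.

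JAK2 went the other way within IFNγ-treated cells. The DI libraries (14.8 to 22.8 CPM) overlapped the I libraries (21.8 to 39.0 CPM) at 1 value, while each DI library was below the I library of the same number, by -0.49, -0.84 and -0.56 on the log2 scale for replicates 1, 2 and 3. The log2 fold change in DI vs I was -0.65 (95% interval -1.20 to -0.10, adjusted p = 0.325, edgeR), which did not pass the threshold. With the replicate number as a block it was -0.64 (-1.14 to -0.15, adjusted p = 0.0931, edgeR). DESeq2 gave an adjusted p of 0.177, so neither called JAK2. The test of the difference itself, an interaction term that subtracts I vs C from DI vs D, gave -0.65 for JAK2 (95% interval -1.46 to 0.15, adjusted p = 1.00), so a difference in the JAK2 response was not shown. No member was called in this interaction, and in the model without a block no gene was (0% of tested genes by edgeR, with 99 at an unadjusted p under 0.05). The block within arms called 4 genes lower (0.0253%) and DESeq2 called 2, none of them a member.

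The receptor chains did not pass the test in either doxycycline contrast. IFNGR1 gave a log2 fold change of -0.31 in D vs C (95% interval -0.64 to 0.02) and -0.25 in DI vs I (-0.58 to 0.08), and IFNGR2 gave -0.12 (-0.33 to 0.10) and -0.22 (-0.44 to -0.01). IFNAR1 gave 0.24 in D vs C (-0.01 to 0.49) and 0.087 in DI vs I (-0.16 to 0.33), and IFNAR2 gave -0.83 (-1.76 to 0.11) and -0.30 (-1.20 to 0.59). IFNGR1, IFNGR2 and IFNAR2 were each lower in the doxycycline library of the same number in 3 of 3 in both contrasts. IFNAR1 was higher in 3 of 3 in D vs C and in 2 of 3 in DI vs I. The share of all tested genes with such patterns was not counted. No member was called lower in either contrast with the block or by DESeq2. Of the remaining kinases, JAK1 gave 0.19 (-0.10 to 0.48) and 0.053 (-0.23 to 0.34), and JAK3 gave -0.35 (-1.86 to 1.15) and 1.12 (-0.38 to 2.62).

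**Figure D3:**
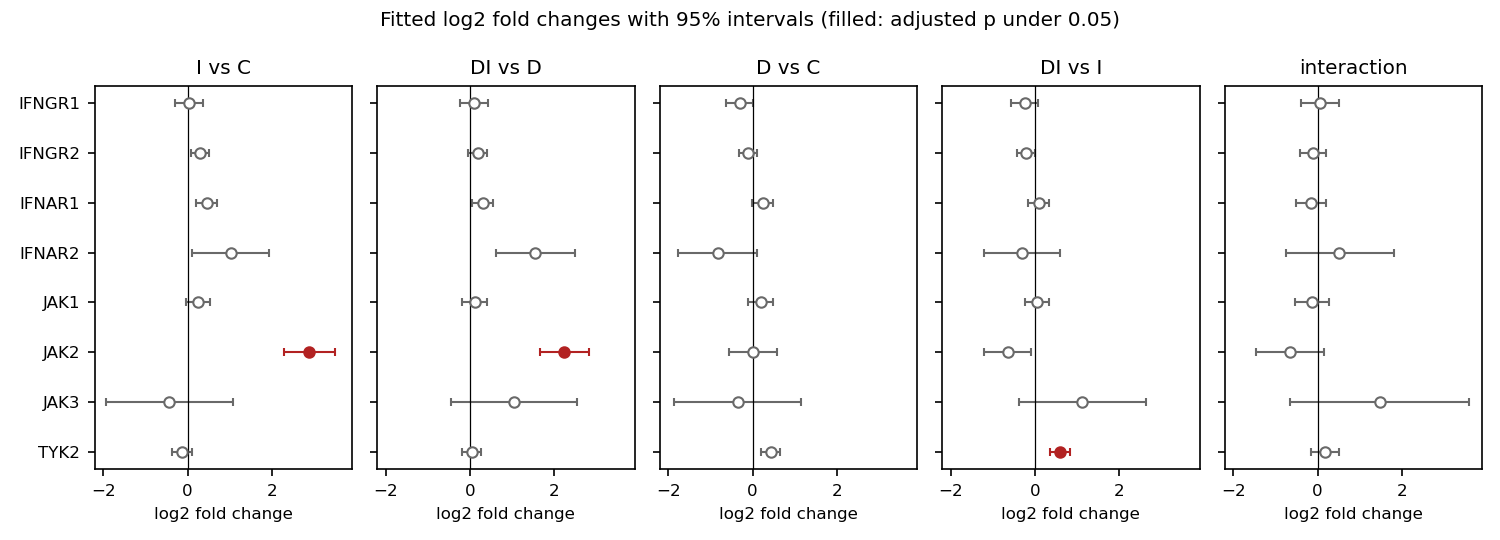
Fitted log2 fold changes of the 8 members with 95% intervals in each contrast and in the interaction (I vs C subtracted from DI vs D), filled where the adjusted p was under 0.05. JAK2 at 2.89 and 2.23 and TYK2 at 0.60 in DI vs I are filled.

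Because JAK2 was called with IFNγ and TYK2, in some fits only, with doxycycline, the make-up of the JAK family was taken within each library. It is given as each kinase's share of the summed TPM of the 4. JAK2 held 3.89% to 5.27% in C and 3.01% to 5.41% in D. With IFNγ it held 19.7% to 29.4% in I and 12.4% to 17.1% in DI, and these 2 ranges did not overlap. TYK2 held 39.9% to 41.7% in C and 26.9% to 27.9% in I, and with doxycycline 43.5% to 48.0% (D) and 33.2% to 43.2% (DI). JAK1 was the largest share in C (51.4% to 54.1%) and in I (41.9% to 51.8%), and JAK3 held at most 2.34% in any library. These shares are a description of the values above, since a rise of TYK2 lowers the share of JAK2.

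**Figure D4:**
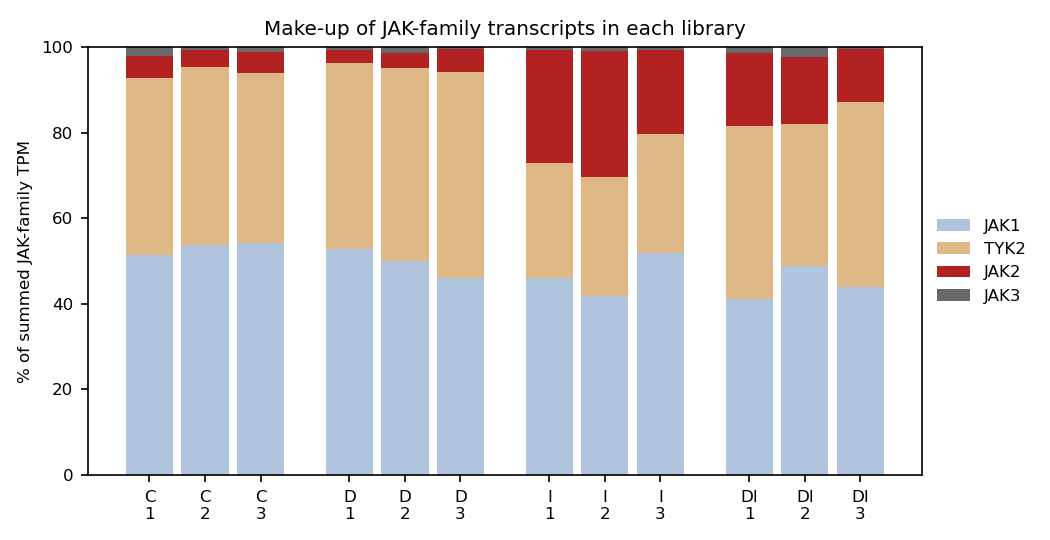
Share of the summed JAK-family TPM held by each kinase, as stacked bars from 0 to 100% in every library. JAK2 takes at most 5.41% in the C and D libraries and between 12.4% and 29.4% in the libraries with IFNγ.

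The genes around and below the kinases were described from lists of pathway genes. Of the 8 STATs and interferon-activated factors described here, 4 were called higher in both IFNγ contrasts and none lower. Over all tested genes, 2.10% were called higher in I vs C and 1.67% in DI vs D. The median log2 fold change of the list was 1.87 in I vs C and 1.80 in DI vs D. The block called 5 of the 8 higher in each contrast (4.88% and 3.77% of all tested genes). The block within arms called 6 in I vs C (9.18%) and 5 in DI vs D (6.98%). IRF1, a transcription factor of the interferon response, went from 2.14 ± 0.288 CPM in C to 411 ± 31.0 in I (log2 fold change 7.58, adjusted p = 2.75e-09, edgeR). STAT2 (2.51) and IRF9 (2.74), partners in type I signalling, also rose, and so did STAT3 (1.94), which serves the IL-6 family of cytokines. JAK2 thus rose by a log2 fold change close to those of STAT2 and IRF9. STAT5B (-0.08) and STAT6 (0.25), which serve growth-factor and interleukin receptors, were not called.

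Of 19 negative regulators of the pathway, 3 were called higher and 1 lower with IFNγ in both contrasts. Over all tested genes, 2.10% were called higher and 0.114% lower in I vs C, and 1.67% and 0.0505% in DI vs D. The median log2 fold change over the list was 0.082 in I vs C. The block called 5 higher in I vs C, where 4.88% of all tested genes were called higher. SOCS1, which binds and inhibits JAK kinases, went from 0.881 ± 0.661 to 51.5 ± 5.10 CPM (5.89, adjusted p = 3.88e-05, edgeR). SOCS3, another JAK inhibitor, went from 1.32 ± 0.888 to 14.7 ± 5.53 CPM (3.46, adjusted p = 0.0245). USP18, which blocks JAK1 at the IFNAR2 chain, went from 0.202 ± 0.175 CPM, near the level of 3 counts, to 11.2 ± 3.85 CPM (adjusted p = 0.00191). SOCS2, a regulator of growth hormone signalling, fell from 26.1 ± 4.97 to 3.07 ± 1.07 CPM (-3.08, adjusted p = 5.47e-04). The phosphatases PTPN1 (0.08) and PTPN11 (0.05) were not called. In D vs C, 2 of the 19 were called higher and none lower, where 0.493% of all tested genes were called higher. With the block 4 of the 19 were called higher, where 6.23% of all tested genes were. The 2 called without the block were SOCS7 (0.56, adjusted p = 0.0452) and the ubiquitin ligase CBL (0.58, adjusted p = 0.0380, edgeR), both named after their values were seen.

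Ligands were at the limit of detection, since 17 of 21 interferon genes had no count and the list summed to at most 2 counts in a library. Of 36 other chains of cytokine receptors that signal through JAK kinases, 17 were tested. Only 1, IL15RA, the private chain of the IL-15 receptor, was called with IFNγ. Over all tested genes, 2.10% were called higher in I vs C and 1.67% in DI vs D. The block called 3 higher in I vs C and 2 in DI vs D, where 4.88% and 3.77% of all tested genes were called higher. IL15RA had 0 counts in every C and D library and 3.82 ± 0.771 CPM in I and 3.65 ± 1.05 in DI (adjusted p = 4.89e-04 and 5.36e-04, edgeR). No fold is given against 0. LIFR (0.14) and CNTFR (-0.05), chains for leukemia inhibitory factor and ciliary neurotrophic factor, were abundant and not called in I vs C. In DI vs I and in the interaction, no gene of these lists was called in the model without a block or, in the interaction, with either block or by DESeq2. In DI vs I the block called 3 negative regulators higher, where 3.85% of all tested genes were called higher. They were SOCS7 (0.44, adjusted p = 0.00687), CBL (0.42, 0.0113) and SOCS2 (0.93, 0.0107, edgeR). DESeq2 called SOCS7 and CBL, where 1.51% of all tested genes were called higher. The block also called 3 of the other receptor chains lower, where 6.62% of all tested genes were called lower, and these were IL6ST (-0.43, adjusted p = 0.00830), CNTFR (-0.99, 0.0213) and IL12RB2 (-1.86, 0.0341, edgeR). Apart from SOCS2 and CNTFR, these genes were named after their values were seen.

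**Figure D5:**
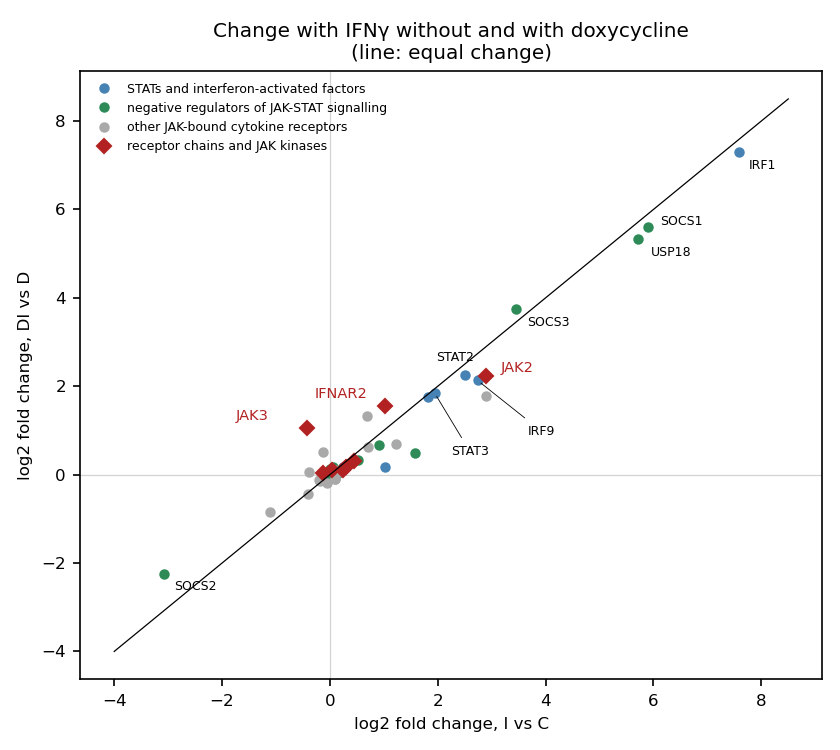
Log2 fold change with IFNγ without doxycycline (I vs C, x axis) and with it (DI vs D, y axis) for the 8 members and the tested genes of 3 pathway lists, leaving out IL15RA, which was at 0 without IFNγ. JAK2 lies at 2.89 and 2.23, among STAT2, IRF9 and STAT3, and the other members lie nearer to 0.

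The genes whose log2 CPM ran most like that of each member over the 12 libraries were named as a description, since the libraries fall into treatment groups and any gene with the same group pattern gives a high Pearson r. For JAK2 they included XAF1 (0.991), an interferon-induced pro-apoptotic factor, and IDO1 (0.989), a tryptophan-degrading enzyme. For TYK2 they were ALDH1L2 (0.960), a mitochondrial folate enzyme, SF1 (0.947), a splicing factor, and MUTYH (0.943), a DNA glycosylase, and for IFNAR1 they were SLC44A1 (0.965), UNC13A (0.960) and LINC01415 (0.936). For IFNGR2 they were GRINA (0.958), KLF6 (0.951) and FYTTD1 (0.941), and for IFNGR1 they were MYL6 (0.923), HSD17B8 (0.918) and ALKBH7 (0.899). For IFNAR2 (MCL1, 0.929), JAK1 (CNOT4, 0.908) and JAK3 (SLC26A6, 0.863) only the closest gene is given.

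Around JAK2 and TYK2, the members called in the model without a block, genes within 100 kb were read for the same contrasts. Next to JAK2, RCL1 was at a log2 fold change of 0.03 in I vs C. INSL6, whose annotated span overlaps that of JAK2 on the other strand, was too low to be tested. Next to TYK2, none of the 7 tested genes was called in DI vs I in the model without a block, and CDC37, which encodes a kinase co-chaperone, gave -0.04 and RAVER1 gave 0.19. One of these neighbours, the adhesion molecule ICAM1, was called higher with IFNγ in I vs C (adjusted p = 2.83e-04) and DI vs D (adjusted p = 5.03e-04, edgeR), whereas TYK2 was not.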

How the data were processed

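The authors deposited raw counts per gene from total RNA sequenced as Illumina paired reads; the aligner, annotation and strandedness are not given in the sources used here, and DESeq2 is the one tool in the submitters' processing notes. The authors' own comparison tables (fold changes, p-values) and 18 per-library columns with unexplained names were not used. Counts were scaled by TMM, filtered by filterByExpr (minimum count 10) and fitted in 1 quasi-likelihood model of 4 groups (edgeR 4.0.16, limma 3.58.1, R 4.3.3), two-sided, called at a Benjamini-Hochberg adjusted p under 0.05 over 15828 genes. CPM uses TMM-scaled library sizes and compares 1 gene across libraries; TPM uses exon lengths from GENCODE 29 and compares genes. Floors of 3 counts cover counting error only. Alternatives were DESeq2 1.42.0, RLE scaling, library size alone, no filter, 2 groups only, the replicate number as a block over all libraries or within each doxycycline arm, transcript length and each library left out. The code was tested on simulated data. Replicates of 1 group differed by more than counting noise.

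Residuals of libraries with the same replicate number correlated at 0.338 to 0.804 and of others at -0.628 to 0.143, so the numbers pair the libraries, although the labels do not say what they mark. Named were the 8 members, ARID1A, up to 4 called genes of largest fold and 2 abundant genes not called per list, the 3 genes most correlated with a member (mean CPM of at least 1, prior count 2) and genes within 100 kb of a called member; for IFNAR2, JAK1 and JAK3 only the closest is printed, and some genes this rule takes in are not reported here. Members and lists were chosen with earlier results of these data known. Promoter sequences are from RefSeq (GRCh38.p14).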

Additional observations from a re-analysis of the deposited data

How the results depend on the processing

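JAK2 was called with IFNγ in both contrasts under every alternative run. With single libraries left out, its log2 fold change ran from 2.7 to 3.1 in I vs C and from 2.1 to 2.4 in DI vs D. The number of members called in I vs C was 1 in the model reported, 2 by DESeq2, 3 with a replicate block and 4 with that block within each doxycycline arm. The share of all tested genes called higher rose in the same order, at 2.10%, 3.14%, 4.88% and 9.18%. In DI vs D the number of members called was 1, and 2 by DESeq2, 2 with the block and 3 with the block within arms. The shares of all tested genes were 1.67%, 2.57%, 3.77% and 6.98%. In D vs C the number was 0 (0.493% of tested genes called higher). It was 1 (TYK2) by DESeq2 (2.50%), with the block (6.23%) and with library size alone (1.26%). In DI vs I it was 1 (TYK2, 0.101%), and 0 on 2 groups only and 0 without the filter, and it ran from 0 to 1 when single libraries were left out. The replicate block changed no other call of a member but called ARID1A in DI vs I (adjusted p = 0.0111), and the cause of these changes was not tested.

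Directions turned for some values that were not called, most of them near 0, and for JAK3, which was -0.43 in I vs C and -0.35 in D vs C and turned when C replicate 1 was left out. Library size alone gave -0.0097 for IFNGR1 in I vs C and -0.0028 for TYK2 in DI vs D. Leaving out single libraries gave -0.13 to 0.15 for IFNGR1 and -0.81 to 0.14 for JAK3 in I vs C, and -0.013 to 0.19 for JAK1 and -0.013 to 0.099 for TYK2 in DI vs D. It gave -0.17 to 0.14 for JAK2 and -1.01 to 0.21 for JAK3 in D vs C, -0.0098 to 0.16 for IFNAR1 and -0.069 to 0.13 for JAK1 in DI vs I, and -0.059 to 0.23 for IFNGR1 in the interaction. Over all genes, the calls in DI vs I numbered 106 in the model reported, 1658 with the block, 635 by DESeq2 and 0 on 2 groups only. IFNAR2 and JAK3 were limited by depth, with 8 to 79 counts per library.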
